A study of Gallus gallus with 6 samples.

Results

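Kinesins and cytoplasmic dynein are the motors that carry cargo along microtubules, and they also build and position the mitotic spindle. Most kinesins walk towards the plus ends of microtubules and dynein walks towards the minus ends, helped by its cofactor dynactin. The centrosome, made of centrioles and the material around them, nucleates microtubules through gamma-tubulin ring complexes and is duplicated once per cell cycle. In cells that form a cilium, the mother centriole becomes its base, and intraflagellar transport (IFT) trains and the BBSome (the complex of Bardet-Biedl syndrome proteins) move cargo in and out of it. Lymphocytes are not known for forming a primary cilium, although some IFT proteins, such as IFT20, have been described at the immune synapse of mammalian T cells.

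The genes described here are those whose symbol in the deposited count table begins with KIF followed by a digit or C, DYNC, DYNL, DCTN, CEP followed by a digit, IFT followed by a digit, BBS followed by a digit, or TUBG. Of 17108 genes in the table, 112 have such a symbol, and the 103 with at least 20 counts summed over the 6 libraries are the members. Their RNA was sequenced from DT40 cells. DT40 is a B cell line of the chicken whose immunoglobulin genes go on diversifying in culture. Bach2 knockout cells (genotype Bach2-/-, 3 libraries) were compared with wild type cells (named Clone 18, 3 libraries). Bach2, a DNA-binding protein, represses transcription in B cells. Each library came from its own culture of unsorted cells, and all cultures of both genotypes grew in the same RPMI medium with fetal calf serum, chicken serum and β-mercaptoethanol. The labels do not say how many knockout clones were used, and the column names of the data call the knockout Bach2ko1, so that a difference particular to a clone cannot be told apart from one of the genotype. The p-values measure the spread between these cultures.

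Total counts were 12934863 to 19316678 in knockout libraries and 8999010 to 20647281 in wild type libraries. Knockout replicate 1 stood apart from the other knockout libraries on the second principal component, which held 13.0% of the variance. The targeted gene BACH2 (ENSGALG00000015605) had 34, 61 and 50 counts in knockout replicates 1, 2 and 3, against 135, 87 and 54 counts in wild type replicates 1, 2 and 3. It averaged 1.17 ± 0.186 RPKM (read counts scaled by gene length and library size) in the knockout and 2.56 ± 0.114 RPKM in wild type (SD, n = 3 each), with a log2 fold change of -1.16 (edgeR adjusted p = 0.00144). Reads on it remained in every knockout library, and the labels do not say which part of the gene was deleted. Of 8 B cell markers, 8 were detected, and their summed level was 1767 to 1880.3 CPM (counts scaled by library size alone) in knockout and 2361 to 2535 CPM in wild type libraries. Of 4 fibroblast markers, 3 had no count in any library. Of 5 T cell markers 5 had counts, led by CD3D. In knockout and wild type, LCK averaged 0.387 and 0.373 CPM, and ZAP70 0.0711 and 0.0163 CPM. CD247 averaged 2.35 and 4.93 CPM and CD3E 0.820 and 17.3 CPM in the same order. Of the 2 macrophage markers found, 1 had counts. The T cell and macrophage lists summed to 87.5 to 109.9 CPM and 17.3 to 23.4 CPM in knockout libraries. In wild type libraries they summed to 140.5 to 174.9 CPM and 39.7 to 48.8 CPM. In unsorted cells, fewer cells of a type and less RNA per cell cannot be told apart.

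The genes under the threshold of 20 counts were KIF2B, KIF6, KIF12, KIF19, KIF21A, KIF26A, CEP126, DYNC1I1 and DCTN1. The highest of them was KIF12 with 16 counts, and the lowest members were KIF25 and CEP57L1 with 27 counts each and KIF26B with 31. DCTN1, the largest dynactin subunit, is listed at 0 in all 6 libraries although 4 other dynactin genes were well counted. KIF25, CEP57L1 and KIF26B did not pass the filter on low counts, which leaves 100 members tested. Without the filter, CEP57L1 had a log2 fold change of 0.95 (SE 0.81, edgeR adjusted p = 0.441), KIF25 at -0.08 (adjusted p = 0.955) and KIF26B at -0.08 (adjusted p = 0.957).

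**Figure D1:**
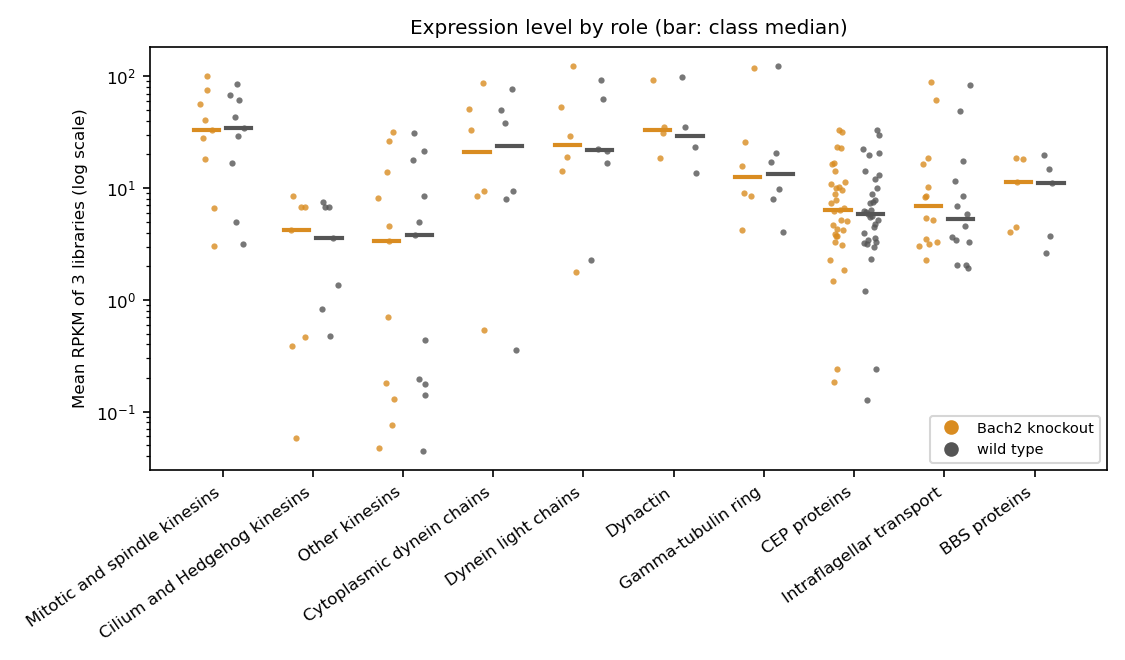
Mean RPKM of the 3 libraries of each genotype (log scale) for the members by role, with Bach2 knockout to the left of wild type in each class and a bar at the class median; KIF1BP and KIF20AL, which have no role class, are left out. The class medians of mitotic kinesins, dynein chains and dynactin lie above those of IFT, CEP and cilium kinesin genes in both genotypes, while single genes of the classes overlap.

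Levels are compared between genes per length, as RPKM. Of the 103 members, 92 had a mean of at least 1 RPKM over the 6 libraries. The mitotic and spindle kinesins were the class with the highest median in both genotypes, with 33.3 RPKM in the knockout and 34.6 RPKM in wild type, ahead of dynactin with 33.1 and 29.4 RPKM. KIF4A, a chromokinesin that also organises the spindle midzone, led the class with 101 ± 2.23 RPKM in the knockout and 85.4 ± 6.45 RPKM in wild type (SD, n = 3 each). KIF11, the motor that pushes spindle poles apart, followed with 76.1 ± 6.33 RPKM and 67.5 ± 0.796 RPKM in the same order of genotypes. DYNLRB1, a roadblock light chain of dynein, and TUBG1, gamma-tubulin, had the highest means in the knockout, with 123 ± 21.3 and 119 ± 12.7 RPKM (SD, n = 3). Their order there rests on knockout replicate 1, and TUBG1 was the higher of the pair in the other knockout libraries. TUBG1 led in wild type with 123 ± 6.86 RPKM. In wild type, TUBG1 had 129, 124 and 116 RPKM in replicates 1, 2 and 3, and DCTN6, the next in the order, averaged 99.4 RPKM.

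Medians of the IFT class were 6.84 RPKM in the knockout and 5.23 RPKM in wild type, and those of the CEP proteins 6.40 and 5.88 RPKM. Within IFT, levels ran in wild type from 1.94 RPKM for IFT27 to 83.9 RPKM for IFT52, although both belong to the same transport complex. The order of IFT levels was led in both genotypes by IFT52 and IFT20. The kinesins with a role in cilia or Hedgehog signalling were low, with medians of 4.24 RPKM in the knockout and 3.58 RPKM in wild type. DYNC2H1, the heavy chain of the dynein that returns IFT trains, reached 0.532 RPKM in the knockout and 0.358 RPKM in wild type, against 32.8 and 38.2 RPKM for DYNC1H1, the heavy chain of cytoplasmic dynein 1.

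The comparison between genotypes asked which of these genes changed without Bach2. At an adjusted p under 0.05 (edgeR quasi-likelihood test, Benjamini-Hochberg adjustment over all 9159 genes tested), 19 of the 100 members rose in the knockout, 11 fell and 70 did not pass. Among all genes tested, 12.7% were called higher and 18.0% lower, and the class counts below are to be read beside these shares. With library totals in place of TMM scaling, 22 members rose and 8 fell. The shares over all genes with library totals are not given here, and the median log2 fold change of all genes was 0.034 there. With TMM scaling, the median log2 fold change of knockout over wild type was 0.080 for the members and -0.0014 for all genes. Most changes were small: 2 members fell at least 2-fold (5.31% of all genes) and 0 rose at least 2-fold (1.22% of all genes, and 19 members rose by less). The genotypes did not overlap for 51 members, or 51.0%, against 46.2% of all genes tested. Against the wild type mean, the median member stood at 0.11, 0.043 and 0.028 on the log2 scale in knockout replicates 1, 2 and 3, and it was 0.035 in the fit without knockout replicate 1.

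These counts changed with the libraries in the fit, and so did the shares over all genes. Without knockout replicate 1, 15.8% of all genes tested were called higher and 20.7% lower. The shares over all genes in the remaining fits are not given here. Whether the swing was particular to the members was not tested. Risen members numbered 19, 8 and 20 when knockout replicate 1, 2 or 3 was left out, and 7, 6 and 9 when wild type replicate 1, 2 or 3 was. Fallen members numbered 13, 7 and 9 when knockout replicate 1, 2 or 3 was left out, and 7, 7 and 6 when wild type replicate 1, 2 or 3 was. Of the 30 called members, 11 kept the call in each of these 6 fits: KIF3C, KIF16B, KIF21B, DYNLL2, CEP68, CEP85L, CEP164, CEP170, CEP290, IFT57 and IFT74. The other 19 each lost it without at least 1 library. Leaving out knockout replicate 1, 2 or 3 brought in 5, 1 and 3 members that were not called over all libraries, and leaving out wild type replicate 1 brought in 1, KIF20AL. KIF20AL was lower in that fit (-0.81, edgeR adjusted p = 0.0441) and without knockout replicate 1 (-0.72, adjusted p = 0.0276), against -0.62 (adjusted p = 0.068) over all libraries.

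**Figure D2:**
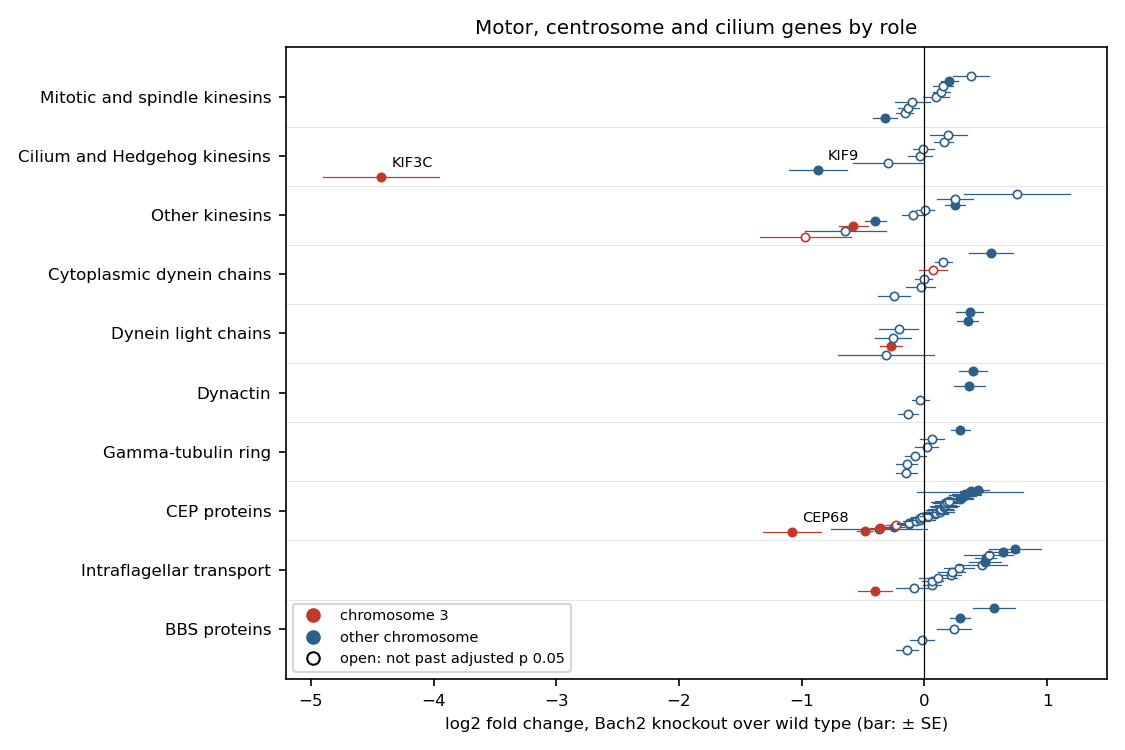
Log2 fold change of Bach2 knockout over wild type (point, with a bar of ± SE) for the tested members in rows by role, without KIF1BP and KIF20AL; red points are genes on chromosome 3 and open points did not pass an adjusted p of 0.05. KIF3C lies at -4.43, far from all others, and the red points lie mostly left of 0.

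Position in the genome went with the direction of change. Genes of chromosome 3 were mostly lower in knockout cells, with a median log2 fold change of -0.45 over its 688 tested genes, against 0.028 over the 7622 tested genes placed on other chromosomes. Genes were assigned to chromosomes by NCBI gene identifier in a table of the GRCg7b assembly, which is not the build named for the counts. Of the tested members, 10 lie on chromosome 3. Of these, 7 fell and 0 rose (0 of 10 at an unadjusted p under 0.05), where 70.3% of all tested genes of that chromosome fell. For the 90 members on other chromosomes the median was 0.13, and 19 were called higher and 4 lower. Those are 21.1% and 4.44%, against 14.1% and 13.5% of all tested genes placed on other chromosomes. BACH2 had no entry in that table.

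The 7 that fell on chromosome 3 were KIF3C, CEP68, KIF16B, CEP170, IFT172, CEP85L and DYNLT1. Refitted relative to the median of that chromosome, KIF3C kept its call (-3.99, edgeR adjusted p = 0.000189). CEP68 stood at -0.63 (adjusted p = 0.0732), KIF16B at -0.13 (adjusted p = 0.473) and CEP170 at -0.04 (adjusted p = 0.724). The sign turned for CEP85L (0.087), IFT172 (0.049) and DYNLT1 (0.18), none of which passed in that fit. DYNC2LI1, a light intermediate chain of dynein 2, was the tested member of the chromosome that had not gone down. It averaged 8.54 RPKM in the knockout and 7.93 RPKM in wild type (log2 fold change 0.07, adjusted p = 0.67) and passed as higher relative to the chromosome median (0.52, adjusted p = 0.00718). The other tested members there were CEP162 (-0.23, adjusted p = 0.0852) and KIF13B (-0.97, adjusted p = 0.0705). CEP57L1, KIF25 and KIF26B, which did not pass the filter on low counts, also lie on this chromosome. KIF13B passed as lower without knockout replicate 1 (-1.24, adjusted p = 0.0263).

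**Figure D3:**
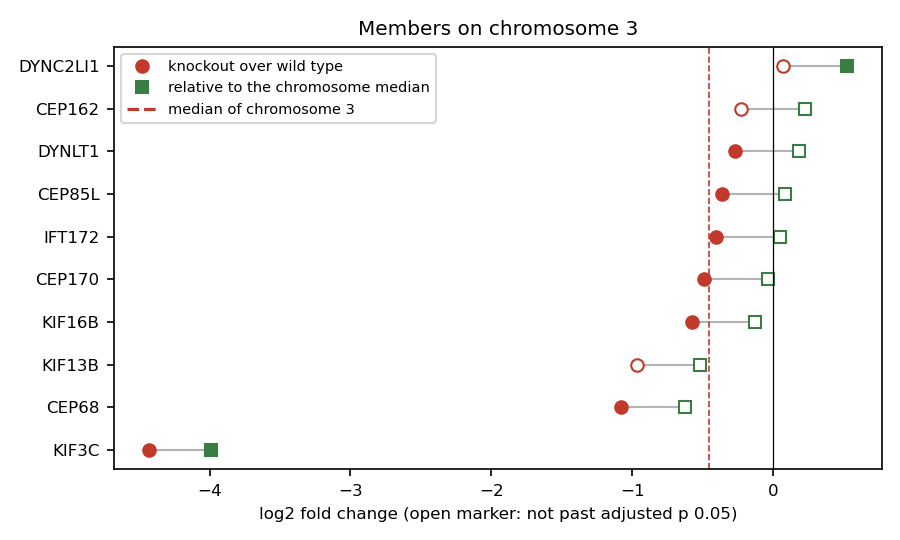
Log2 fold change of the 10 tested members on chromosome 3, as knockout over wild type (red circles) and relative to the chromosome's median (green squares); open markers did not pass an adjusted p of 0.05 and the dashed line is the chromosome median of -0.45. Relative to that median, KIF3C stays far below 0 and DYNC2LI1 lies above it.

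The kinesins were the class with the largest single change. KIF3C (ENSGALG00000026973) encodes a kinesin-2 motor subunit that can pair with KIF3A, the common subunit of the motor that drives IFT trains outward. It had 1, 1 and 5 counts in knockout replicates 1, 2 and 3, against 76, 41 and 22 counts in wild type replicates 1, 2 and 3. Every knockout library was far below every wild type library, and the level was 0.0587 ± 0.0502 RPKM in the knockout and 1.36 ± 0.281 RPKM in wild type (SD, n = 3 each). This is a log2 fold change of -4.43 ± 0.47 (SE, edgeR adjusted p = 6.79e-05), which ran from -5.42 to -3.99 over the alternatives. From the 7 counts summed over knockout libraries and the 139 over wild type libraries, the level was 23.4-fold lower in the knockout, with an exact 95% binomial interval of 11.0-fold to 59.2-fold that covers counting error only.

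The kinesin-2 genes KIF3A and KIF3B showed no such change. KIF3A had 7.05, 6.88 and 6.58 RPKM in knockout replicates 1, 2 and 3, against 6.49, 7.03 and 6.66 RPKM in wild type replicates 1, 2 and 3, and the genotypes overlapped (log2 fold change -0.01 ± 0.086, edgeR adjusted p = 0.955). KIF3B, the usual partner of KIF3A, averaged 8.52 RPKM in the knockout and 7.47 RPKM in wild type (0.16 ± 0.078, adjusted p = 0.158). Per length, KIF3C was the lowest of these kinesin-2 genes in wild type cells as well.

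KIF9 (ENSGALG00000005517), a kinesin of motile cilia in Chlamydomonas and mammals, was the other cilium kinesin that fell. It had 0.501, 0.434 and 0.449 RPKM in knockout replicates 1, 2 and 3, against 0.829, 0.700 and 0.961 RPKM in wild type replicates 1, 2 and 3. The groups did not overlap at this low level (log2 fold change -0.87 ± 0.24, edgeR adjusted p = 0.0179), and the call was lost without wild type replicate 1 or 3 or knockout replicate 2. KIF7, a regulator of Hedgehog signalling at the cilium tip, was at 6.81 RPKM in both genotypes (adjusted p = 0.825). KIF24, which acts on the mother centriole, stood at 0.19 (adjusted p = 0.351) and KIF27, the relative of KIF7, at -0.30 (adjusted p = 0.458).

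Among 9 tested mitotic and spindle kinesins, 1 rose and 1 fell while 7 did not pass, and none lies on chromosome 3. KIF4A rose by 0.20 ± 0.070 (log2, SE, adjusted p = 0.0484). KIF18B, a depolymerase of astral microtubules, had 24.3, 28.9 and 31.7 RPKM in knockout replicates 1, 2 and 3, and 37.4, 32.9 and 33.5 RPKM in wild type replicates 1, 2 and 3. Its log2 fold change was -0.32 ± 0.098 (adjusted p = 0.0298). KIF4A lost its call without wild type replicate 2 or 3 or knockout replicate 2 or 3, and KIF18B without any 1 wild type library or knockout replicate 2.

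KIF11 had 83.0, 74.7 and 70.6 RPKM in knockout replicates 1, 2 and 3, against 67.2, 68.5 and 67.0 RPKM in wild type replicates 1, 2 and 3. All 3 knockout values lay above the wild type ones, but the difference did not pass (0.14 ± 0.073, adjusted p = 0.176). KIF23, the motor of centralspindlin in cytokinesis, had 33.8, 32.7 and 33.3 RPKM in the knockout and 32.9, 28.4 and 26.5 RPKM in wild type (0.15 ± 0.083, adjusted p = 0.20). KIF18A, which dampens chromosome movements at metaphase, stood at 0.38 (adjusted p = 0.0692) and passed as higher without knockout replicate 3 (0.51, adjusted p = 0.0151). KIF15, a spindle motor that overlaps with KIF11, stood at -0.16 (adjusted p = 0.112). KIF15 passed as lower without knockout replicate 1 (adjusted p = 0.0042). KIF2A, KIF14 and KIF20A lay between -0.13 and 0.091 with adjusted p-values of at least 0.283. The median of the class was 0.091 and stood at -0.027 without knockout replicate 1.

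Of 9 tested transport kinesins, 1 rose and 2 fell. KIF5B, the ubiquitous conventional kinesin heavy chain, had 29.1, 24.6 and 24.7 RPKM in knockout replicates 1, 2 and 3, against 21.8, 20.7 and 22.1 RPKM in wild type replicates 1, 2 and 3. It rose by 0.25 ± 0.081 (log2, SE, edgeR adjusted p = 0.0396), a call that was lost without any 1 wild type library or knockout replicate 2. Its paralogue KIF5C averaged 31.7 RPKM in the knockout and 30.8 RPKM in wild type (0.0047 ± 0.077, adjusted p = 0.97). KIF5C therefore made up 54.3% to 55.4% of the summed RPKM of the pair in knockout libraries and 58.1% to 59.5% in wild type libraries.

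KIF21B, a kinesin that limits microtubule growth and is known from neurons and T cells, had 12.7, 13.5 and 15.6 RPKM in knockout replicates 1, 2 and 3 and 19.0, 17.8 and 17.2 RPKM in wild type replicates 1, 2 and 3. Knockout values were all below wild type values (-0.40 ± 0.085, edgeR adjusted p = 0.00484), and KIF21B is not on chromosome 3. KIF16B, an endosome kinesin on chromosome 3, fell by 0.58 ± 0.12 before that chromosome's median was taken off. KIF1A, KIF1B, KIF13A, KIF13B and KIFC3 did not pass. KIFC3 varied within both genotypes, and more widely in the knockout. It had 14, 45 and 70 counts in knockout replicates 1, 2 and 3, while wild type replicates 1, 2 and 3 had 20, 22 and 18 counts. Scaled by gene length and library size, knockout replicates 1, 2 and 3 had 0.313, 0.726 and 1.05 RPKM. Wild type replicates 1, 2 and 3 had 0.281, 0.458 and 0.579 RPKM. KIFC3 passed as higher without knockout replicate 1 (adjusted p = 0.0187).

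In dynein 1, the motor for nearly all minus end directed transport in the cytoplasm, no heavy, intermediate or light intermediate chain passed. DYNC1H1 had 26.0, 39.3 and 33.2 RPKM in knockout replicates 1, 2 and 3, against 35.5, 37.2 and 41.8 RPKM in wild type replicates 1, 2 and 3. Knockout replicates 1 and 3 lay below every wild type library, and knockout replicate 2 lay within the wild type range. The difference did not pass (-0.25 ± 0.13, edgeR adjusted p = 0.168). DYNC1H1 passed as lower without knockout replicate 2 (-0.40, adjusted p = 0.038). DYNC1I2, DYNC1LI1 and DYNC1LI2 stood at -0.0054, 0.15 and -0.030. In dynein 2, DYNC2H1 rose by 0.54 ± 0.18 (adjusted p = 0.0394) from a low level. It had 0.521, 0.619 and 0.456 RPKM in knockout replicates 1, 2 and 3 (99, 163 and 129 counts). Wild type replicates 1, 2 and 3 had 0.341, 0.377 and 0.356 RPKM (103, 77 and 47 counts), and the genotypes did not overlap. The call of DYNC2H1 was lost without any 1 wild type library or knockout replicate 2.

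The light chains of dynein, which also bind other proteins, moved in both directions: 2 of 6 rose, 1 fell and the test was not passed by 3. DYNLL2 had 32.0, 28.1 and 27.4 RPKM in knockout replicates 1, 2 and 3, against 21.9, 21.8 and 23.3 RPKM in wild type replicates 1, 2 and 3, and rose by 0.35 ± 0.085 (log2, SE, edgeR adjusted p = 0.00973). DYNLL1, its near-identical paralogue, had 12.7, 16.1 and 13.7 RPKM in knockout replicates 1, 2 and 3, and 15.9, 16.4 and 17.5 RPKM in wild type replicates 1, 2 and 3 (-0.25 ± 0.15, adjusted p = 0.217). The share of DYNLL2 in the summed RPKM of the pair was 63.6% to 71.6% in knockout libraries and 57.0% to 58.0% in wild type libraries. Reads may be split between such close copies, so that their separate levels are uncertain.

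DYNLRB1 rose by 0.37 ± 0.11 (adjusted p = 0.0257), with 147, 116 and 106 RPKM in knockout replicates 1, 2 and 3 and 88.5, 93.7 and 96.7 RPKM in wild type replicates 1, 2 and 3. The call was lost without any 1 wild type library, and the log2 fold change was 0.23 without knockout replicate 1. Its paralogue DYNLRB2 was rare, at 1.78 RPKM in the knockout and 2.29 RPKM in wild type (adjusted p = 0.584). DYNLT1, a Tctex-type light chain on chromosome 3, fell by 0.27 ± 0.089 (adjusted p = 0.0386). The call of DYNLT1 was lost without any 1 wild type library or knockout replicate 2 or 3. It was also lost with other scalings, with DESeq2 and with the replicate number as a block, and was kept in 3 of 13 alternatives. DYNLT3 did not pass (-0.21, adjusted p = 0.352), but passed as lower without knockout replicate 1 (-0.42, adjusted p = 0.00853). Over 6 pairs of paralogous motor subunits, the smallest two-sided p of an exact permutation test on the share of a pair was 0.1, the smallest that 3 libraries against 3 allow. It was reached by KIF5C of the KIF5 pair, KIF3B of KIF3A plus KIF3B, and DYNLL2 of the DYNLL pair.

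Dynactin links dynein to cargo. Of its 4 tested genes 2 rose, DCTN3, of the dynactin shoulder, by 0.37 ± 0.12 (adjusted p = 0.0452) and DCTN5, of the pointed end complex, by 0.40 ± 0.11 (log2, SE, adjusted p = 0.0215). DCTN5 had 19.2, 19.4 and 16.8 RPKM in knockout replicates 1, 2 and 3, against 12.7, 14.7 and 13.8 RPKM in wild type replicates 1, 2 and 3. DCTN3 had 25.7, 34.8 and 31.9 RPKM in knockout replicates 1, 2 and 3, so that replicate 1 lay close to the wild type values of 24.9, 23.5 and 21.5 RPKM. Its call was lost without each library except knockout replicate 1, and that of DCTN5 without wild type replicate 1 or 3 or knockout replicate 2. DCTN4 and DCTN6 stood at -0.035 and -0.13.

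Of 6 genes of the gamma-tubulin ring, 1 rose and 5 did not pass. TUBG1 had 106, 119 and 132 RPKM in knockout replicates 1, 2 and 3, and 129, 124 and 116 RPKM in wild type replicates 1, 2 and 3, with full overlap (-0.08 ± 0.086, edgeR adjusted p = 0.536). TUBGCP3, which forms the small complex with gamma-tubulin and TUBGCP2, rose by 0.29 ± 0.077 (adjusted p = 0.0149), and the call was lost without wild type replicate 1 or 2. It had 27.6, 25.8 and 24.5 RPKM in knockout replicates 1, 2 and 3, against 20.3, 20.4 and 21.5 RPKM in wild type replicates 1, 2 and 3. TUBGCP2, TUBGCP4, TUBGCP5 and TUBGCP6 ran from -0.15 to 0.064.

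The CEP proteins were the largest class. There were 32 tested, of which 5 rose and 4 fell while 23 did not pass, with a median of 0.13. CEP164, a distal appendage protein needed to dock the centriole at the membrane, had 10.5, 9.57 and 10.4 RPKM in knockout replicates 1, 2 and 3, against 7.22, 7.44 and 7.33 RPKM in wild type replicates 1, 2 and 3. The groups were well separated, and it rose by 0.44 ± 0.085 (log2, SE, edgeR adjusted p = 0.00297). CEP89, of the same appendages, rose by 0.33 ± 0.10 (adjusted p = 0.0314). CEP83, which recruits the other appendage proteins, stood at 0.33 ± 0.13 and did not pass (adjusted p = 0.0806).

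CEP290, which links the membrane to microtubules in the transition zone, had 4.03, 4.36 and 4.18 RPKM in knockout replicates 1, 2 and 3, and 3.09, 3.06 and 3.31 RPKM in wild type replicates 1, 2 and 3 (0.38 ± 0.092, edgeR adjusted p = 0.00982). CEP152, a scaffold that brings the kinase PLK4 to the centriole, rose by 0.32 ± 0.095 (adjusted p = 0.0252). CEP78, a protein of the distal centriole wall, rose by 0.29 ± 0.099 (adjusted p = 0.0438). CEP89 lost its call without wild type replicate 1 or 2 or knockout replicate 2, CEP152 without any 1 wild type library or knockout replicate 2, and CEP78 without any 1 wild type library or knockout replicate 1 or 2.

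Of the 4 CEP genes that fell, 3 lie on chromosome 3. CEP68 (ENSGALG00000008787), a part of the linker that holds the centrosomes of a cell together, had 1.31, 2.26 and 1.99 RPKM in knockout replicates 1, 2 and 3, against 3.75, 3.27 and 4.80 RPKM in wild type replicates 1, 2 and 3. It was lower in all 3 knockout libraries, with a log2 fold change of -1.08 ± 0.24 (edgeR adjusted p = 0.00579). CEP170, of the subdistal appendages, fell by 0.49 ± 0.065 and CEP85L by 0.37 ± 0.079. CEP350, a large centriole protein of chromosome 8, fell by 0.25 ± 0.087 (adjusted p = 0.0492). That call was lost in each of the 6 fits with a library left out, with other scalings and with DESeq2, and was kept in 1 of 13 alternatives. Its adjusted p lay between 0.0434 and 0.159 across alternative settings.

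Among CEP genes that did not pass, CEP55, an abscission factor of dividing cells, had 26.7, 21.5 and 21.2 RPKM in knockout replicates 1, 2 and 3, and 22.7, 19.7 and 19.3 RPKM in wild type replicates 1, 2 and 3 (0.12 ± 0.12, adjusted p = 0.448). CEP192, the scaffold of the material around the centrioles, was at 6.23 ± 0.502 RPKM in the knockout and 6.19 ± 0.295 RPKM in wild type (adjusted p = 0.861). CEP63, the partner of CEP152 and the CEP gene with the highest level, averaged 32.9 RPKM in both genotypes. The remaining genes that did not pass lay between -0.37, for a locus listed as CEP250 and CEP250L, and 0.37, for CEP19. The tables hold CEP250 in 2 rows, and reads could be split between them.

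**Figure D4:**
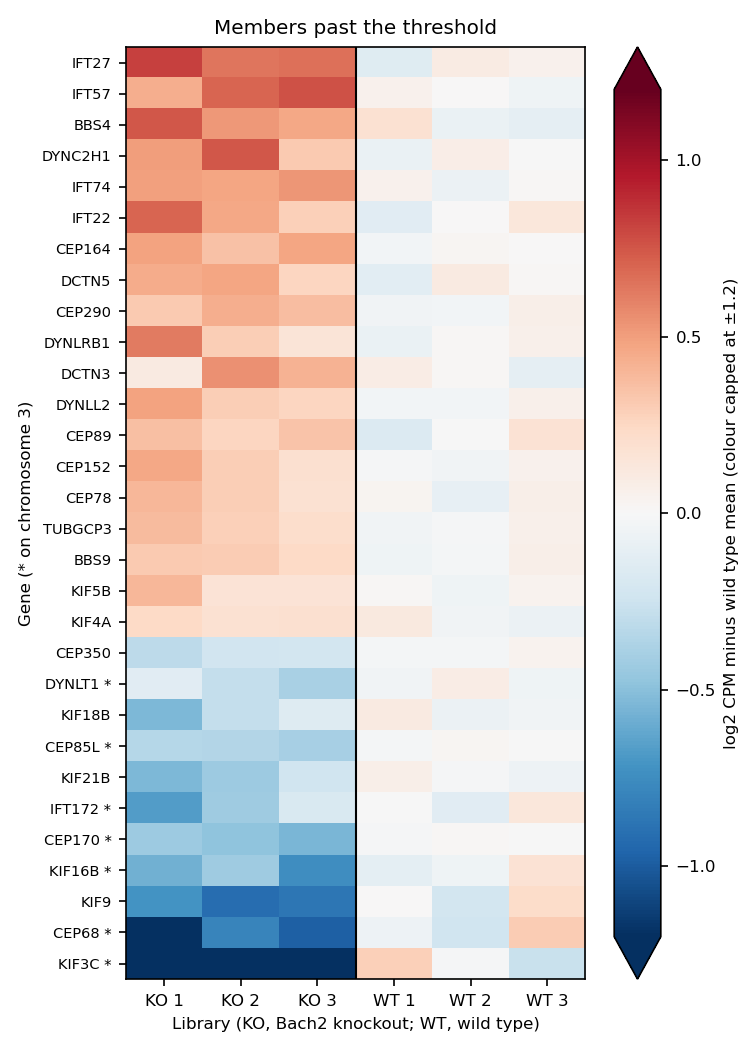
Log2 CPM minus the wild type mean in each library, with the 3 knockout libraries to the left of the 3 wild type libraries, for the 30 members past the threshold, from the largest rise (IFT27) at the top to the largest fall (KIF3C) at the bottom. The colour scale is capped at ±1.2, and asterisks mark genes on chromosome 3, which occur among the falling genes only.

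There were 14 IFT genes tested, of which 4 rose (28.6%) and 1 fell (7.14%) while 9 did not pass. Over all genes tested, 12.7% rose and 18.0% fell. Of the 14, 12 had a positive log2 fold change, against 4566 of all 9159 genes tested. The class median was 0.25, with 0.20 to 0.36 when a library was left out. IFT57 had 4.74, 5.65 and 5.93 RPKM in knockout replicates 1, 2 and 3, against 3.55, 3.40 and 3.26 RPKM in wild type replicates 1, 2 and 3. It rose by 0.64 ± 0.12 (log2, SE, edgeR adjusted p = 0.00288) and kept its call in all 13 alternatives, as did IFT74.

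In Chlamydomonas and mammals, IFT74 and IFT81 bind tubulin as a pair and carry IFT22 and IFT27 within the IFT-B complex. IFT74 had 8.49, 8.34 and 8.71 RPKM in knockout replicates 1, 2 and 3, and 6.15, 5.59 and 5.94 RPKM in wild type replicates 1, 2 and 3 (0.50 ± 0.086, edgeR adjusted p = 0.00155). IFT27 had 3.56, 3.13 and 3.17 RPKM in knockout replicates 1, 2 and 3, against 1.75, 2.07 and 1.998 RPKM in wild type replicates 1, 2 and 3 (0.74 ± 0.21, adjusted p = 0.0223). This was the largest rise among the members past the threshold, and the groups did not overlap.

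IFT22 rose by 0.50 ± 0.13 (adjusted p = 0.0143), with 19.0, 16.1 and 14.4 RPKM in knockout replicates 1, 2 and 3 and 10.5, 11.5 and 12.5 RPKM in wild type replicates 1, 2 and 3. IFT81 stood at 0.52 ± 0.20 and did not pass (adjusted p = 0.0687), except without knockout replicate 3 (0.70, adjusted p = 0.013). IFT22 lost its call without wild type replicate 1 or 2, and IFT27 without any 1 wild type library or knockout replicate 2. These genes lie on different chromosomes except IFT27 and IFT57, which both lie on chromosome 1.

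The other IFT-B genes gave a mixed picture. IFT88, a subunit needed for cilium assembly in mice and Chlamydomonas, had 10.9, 10.7 and 9.24 RPKM in knockout replicates 1, 2 and 3, against 9.22, 8.62 and 7.77 RPKM in wild type replicates 1, 2 and 3 (0.22 ± 0.11, edgeR adjusted p = 0.149). IFT20 (0.28, adjusted p = 0.0994), IFT46 (0.11), IFT52 (0.059) and IFT80 (0.066) did not pass. IFT20 passed as higher without knockout replicate 3 (0.40, adjusted p = 0.0209). IFT172, a peripheral subunit on chromosome 3, had 2.93, 3.47 and 4.11 RPKM in knockout replicates 1, 2 and 3, and 4.57, 4.14 and 5.01 RPKM in wild type replicates 1, 2 and 3. Its fall of 0.40 ± 0.14 (adjusted p = 0.0431) was lost without each library except knockout replicate 3. Of the IFT-A genes, which serve the return trip, IFT43, IFT122 and IFT140 stood at 0.47, -0.082 and 0.22 and did not pass.

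**Figure D5:**
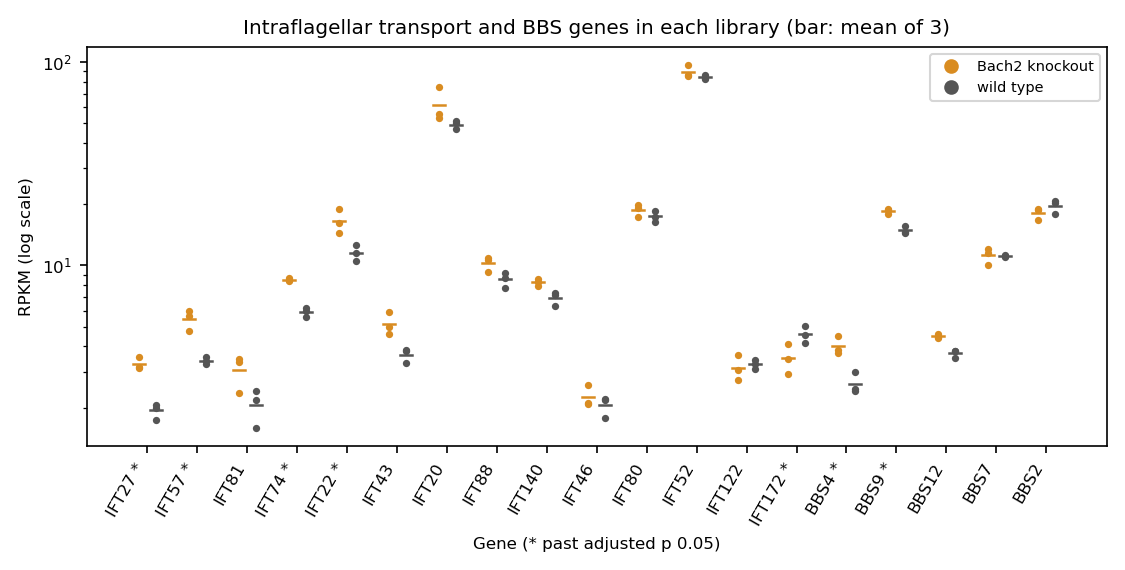
RPKM (log scale) of the 14 IFT and 5 BBS genes in each library, with knockout to the left of wild type and a bar at the mean of 3; an asterisk marks an adjusted p under 0.05. IFT27, IFT57, IFT74 and IFT22 lie higher in all 3 knockout libraries than in any wild type library, and IFT172 lies lower.

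BBS genes encode the cargo adaptor of IFT and its assembly factors. Of 5 tested, 2 rose, 0 fell at an unadjusted or adjusted p under 0.05 and 3 did not pass. BBS4 had 4.52, 3.85 and 3.71 RPKM in knockout replicates 1, 2 and 3, against 2.98, 2.46 and 2.41 RPKM in wild type replicates 1, 2 and 3, and rose by 0.57 ± 0.17 (log2, SE, edgeR adjusted p = 0.0295). BBS9 had 19.0, 18.7 and 18.0 RPKM in knockout replicates 1, 2 and 3 and 14.5, 14.6 and 15.6 RPKM in wild type replicates 1, 2 and 3 (0.29 ± 0.081, adjusted p = 0.0206). BBS4 lost its call without wild type replicate 2 or 3 or knockout replicate 2, and BBS9 without wild type replicate 1 or 2 or knockout replicate 2. BBS2, a further BBSome subunit, stood at -0.15 (adjusted p = 0.25), BBS7 at -0.019 and the chaperonin-like BBS12 at 0.24.

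Markers of ciliated epithelium, at far lower levels than IFT and BBS genes, summed to more in the knockout. Of 6 such markers 4 were matched, and DNAH5 had no count in any library. The list summed to 3.90 to 5.03 CPM in knockout libraries and 1.52 to 1.83 CPM in wild type libraries, led by DNAH9 with 40, 61 and 70 counts in knockout replicates 1, 2 and 3 and 28, 17 and 12 counts in wild type replicates 1, 2 and 3. DNAH9 alone averaged 3.34 CPM in the knockout and 1.32 CPM in wild type, and only 1 marker of the list, DNAH9, passed the filter on low counts. The part of these markers in the result was not tested.

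Related genes outside the symbol rule were read from lists of 6 groups. The shares over all genes tested were 12.7% called higher and 18.0% called lower. Of 28 tested genes of the centriole and the material around it, 8 rose (28.6%) and 2 fell (7.14%), with a median of 0.14. The largest rises were of TTBK2 (0.72), the kinase that starts cilium assembly at the mother centriole, CETN2 (0.56), a centrin, and POC5 (0.50), a protein of the distal centriole. POC5 lost its call without wild type replicate 1. The genes that fell, NINL (-0.84) and SDCCAG8 (-0.41), both lie on chromosome 3 and stood at -0.39 and 0.045 relative to its median, where neither passed.

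Of 29 tested genes of other IFT subunits, the transition zone and cilium signalling, 6 rose (20.7%) and 2 fell (6.90%). The other 21 did not pass, and the median was 0.090. TRAF3IP1, which is the IFT-B subunit IFT54, rose by 0.85 ± 0.11 (log2, SE, edgeR adjusted p = 0.000332), with 5.89 RPKM in the knockout and 3.20 RPKM in wild type. DPCD rose by 2.38 and IQCB1, a partner of CEP290, by 0.65. TTC8, the BBSome subunit BBS8, was low and fell by 1.27 (adjusted p = 0.0246), a call lost without any 1 wild type library or knockout replicate 3. MKKS, the chaperonin-like BBS6, fell by 0.41. MKKS is a chromosome 3 gene, and with the median of that chromosome taken off its value was 0.041. Of 9 tested axonemal genes, DNAH9, the marker named above, rose (1.34, adjusted p = 0.00244) and 8 did not pass. Of the 9, 6 had a positive log2 fold change and 3 a negative one.

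Among motor cofactors, 2 of 14 rose (14.3%), 2 fell (14.3%) and 10 did not pass. HOOK1, an adaptor that joins dynein and dynactin to cargo, averaged 13.5 RPKM in the knockout and 7.02 RPKM in wild type (0.92 ± 0.12, edgeR adjusted p = 0.000244). NDE1, a dynein regulator, rose by 0.29. KLC4, a kinesin light chain on chromosome 3, fell by 0.88 and still passed relative to that chromosome's median (-0.43, adjusted p = 0.00153). BICD2, another dynein adaptor, fell by 0.34. NDE1 lost its call without any 1 wild type library and BICD2 without wild type replicate 2.

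Of 29 tested spindle and cytokinesis genes without motor activity or acting beside the motors above, 3 rose (10.3%) and 5 fell (17.2%). Both shares are near the 12.7% and 18.0% of all genes. The other 21 did not pass, and the median was 0.035. Of the 5 that fell, 4 are chromosome 3 genes, and 0 of those 4 passed as lower relative to its median. NUF2, TACC3 and TPX2 rose by 0.35, 0.28 and 0.23. BUB1 (-0.61), NUMA1 (-0.44) and CENPF (-0.43) fell furthest, and in the relative fit BUB1 and CENPF stood at -0.16 and 0.025. NUMA1, the partner of dynein at the spindle poles, is on chromosome 1. The calls of NUF2, TACC3, TPX2, NUMA1 and CENPF were each lost in at least 2 of the fits that left out a library. Of 20 tested tubulins and microtubule-associated genes, 1 rose (5.00%) and 6 fell (30.0%, against 18.0% of all genes). Of the 6 that fell, 4 lie on chromosome 3, and 1 of those 4, MAP7, passed as lower relative to its median. MAP7, which activates kinesin-1, fell by 3.02 ± 0.27 (edgeR adjusted p = 2.35e-05) and stood at -2.57 in the fit relative to the chromosome median. The beta-tubulin genes TUBB2A and TUBB2B fell by 0.80 and 0.78, and TBCA, a tubulin folding cofactor, rose by 0.38.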

How the data were processed

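RNA of 3 Bach2 knockout and 3 wild type DT40 cultures was sequenced, and samples were grouped by the genotype in their labels. The deposited count table holds raw whole-number counts per gene, and the deposited RPKM table holds the same counts scaled by the authors per kilobase and per library, as comparing the tables shows. Per the submitters' processing notes, the tools were bcl2fastq 1.8.4, TopHat2 2.1.0, Subread 1.5.0, edgeR and limma, with build galGal4. The annotation and any strand setting are not given in the sources used here, so a gene and an overlapping or antisense gene cannot be told apart. Total counts per library ran from 8999010 to 20647281, and that depth limits low genes most. The binomial interval given for KIF3C covers counting error only.

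Counts were tested with edgeR 4.0.16 (quasi-likelihood, two-sided, filterByExpr, TMM, Benjamini-Hochberg, threshold 0.05) in R 4.3.3 over 9159 genes, after the code was tested on simulated data. Alternatives were other scalings, DESeq2 1.42.0, other filters, leaving out each library, the replicate number as a block, and chromosome 3 relative to its median. Of 14007 NCBI gene identifiers, 13400 were placed on a chromosome of GRCg7b.

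The members and lists were chosen with earlier results of these data known. The rule for names took the targeted gene, every called member, every member under the filter and 12 fixed genes. Among the fixed genes, BBS1 was not analysed here and DCTN1 was under the threshold of 20 counts. The rule also took up to 3 called genes a direction from each related list. Other genes were named with their values in view. From the related lists, 1 gene is not reported here and was left out of their counts.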

Additional observations from a re-analysis of the deposited data

How the results depend on the processing

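Leaving out 1 library gave 6 to 20 members called higher and 6 to 13 called lower, and a median member of 0.03462 (without knockout replicate 1) to 0.11292. The other scalings, filters and DESeq2 gave 15 to 22 higher and 8 to 11 lower, and the shares over all genes in those fits are not given here. With chromosome 3 relative to its median, 18 members were called higher and 4 lower. Over all genes tested, 12.9% were called higher and 13.4% lower in that fit. Of the 7 called members on that chromosome 6 lost their call and DYNC2LI1 gained 1, while KIF4A, DCTN3 and CEP350, on other chromosomes, lost theirs at unchanged fold changes. In that fit CEP85L stood at 0.0867, DYNLT1 at 0.1808, IFT172 at 0.04909, SDCCAG8 at 0.04502, MKKS at 0.04098 and CENPF at 0.02515, all with the sign turned and none past the threshold. Of the 30 called members, 7 kept their call in every alternative run for them: KIF3C, KIF21B, DYNLL2, CEP164, CEP290, IFT57 and IFT74. In at least 1 alternative each, CEP290 and DYNLL2 passed the threshold only narrowly. For the other losses of a call the cause was not tested. Class medians near 0 changed sign in some fits. With library totals the cilium kinesins stood at 0.00101 and the gamma-tubulin ring at 0.00619. The median of all genes also moved there, to 0.034 from -0.0014 with TMM. The cilium kinesins were above 0 with the filter on RPKM as well, which left out KIF3C, KIF9 and KIF27 of that class. Without knockout replicate 1, the gamma-tubulin ring stood at 0.0029 and the mitotic kinesins at -0.02724.

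With the replicate number as a block, 14 members were called higher and 9 lower. The calls lost there were those of KIF4A, KIF5B, DCTN3, DYNC2H1, CEP78, CEP350 and DYNLT1. With library totals CEP350, DYNLT1 and IFT172 lost theirs, and with the filter on RPKM KIF4A, DCTN3 and CEP78 did. Deviations from the genotype mean had correlations of 0.003568, 0.09252 and -0.02124 between knockout and wild type libraries of number 1, 2 and 3, all near 0. With 3 libraries of each genotype, these values cannot tell whether libraries of a number share more than that number. Not every library correlated best with its own number. Depth limits the genes with few counts, such as KIF3C, KIF9, KIFC3 and DYNC2H1.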
